A study of Mus musculus with 40 samples.

Results

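Collagens and other extracellular matrix genes were followed through N-nitrosotris-(2-chloroethyl)urea (NTCU) induced squamous lesions of the mouse lung. The 50 genes were taken from a list of gene symbols made with earlier results of these data known, out of 37310 genes in the count table. All 50 passed the filter on low values that left 15630 genes for testing. They were ordered by role into 5 fibrillar collagens, 10 basement membrane genes, 7 other collagens, 12 elastic fibre genes, 5 proteoglycans, 6 matricellular genes (secreted proteins that bind matrix and cells, here with fibronectin) and 5 genes of collagen processing and crosslinking. RNA sequencing was carried out on 40 fresh-frozen samples of female SWR/J mice (written SWJ in the strain labels) and A/J mice, of which the 25 that passed quality control were used. NTCU is a carcinogen painted on the skin, and control mice received the acetone vehicle alone.

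The normal group held 7 samples of vehicle-treated mice at 0 µmol NTCU, of which 3 were laser-capture microdissected (LCM) cells (1 SWR/J and 2 A/J) and 4 were whole lung sections (3 SWR/J and 1 A/J). Mild dysplasia held 5 samples, 3 LCM and 2 whole lung, all from SWR/J mice given 15 µmol in total. High-grade lesions held 13 samples, 7 LCM and 6 whole lung, from 8 SWR/J and 5 A/J samples given 14 to 50 µmol. They were graded moderate to severe dysplasia, apart from 4 samples. An LCM and a whole lung sample were graded severe (high-grade replicates 3 and 11). An LCM sample was labelled squamous cell carcinoma tumor (high-grade replicate 7) and a whole lung sample carcinoma in situ (high-grade replicate 13), here joined as CIS/SCC. The age at collection is not in the sample labels, and samples that came from the same mouse could not be identified, so that p-values measure the spread between samples, which may share an animal. Strain, dose and grade were not crossed in this design, since mild dysplasia was sampled in 1 strain at 1 dose.

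Expected read counts ranged from 2667387 to 16534728 per sample (median 9075416), and the 50 genes together took 0.138% to 0.976% of them. In high-grade replicates 3 and 10, Eln had fewer than 3 counts, and the other 49 genes were above that in every sample. For mild dysplasia replicate 5 and normal replicate 7, both LCM, the free-text description and the grade label disagreed, and the grade label was used. High-grade replicate 3 (LCM, the lowest transcript integrity of the 25) and normal replicate 5 (whole lung) had stood apart from the rest in earlier work on these data. Counts of changed genes are given with and without these samples. The transcript integrity number (TIN), which scores how evenly reads cover transcripts, ran from 21.7 to 75.1 and entered the model. In the LCM samples labelled as captured cells the airway epithelial markers Epcam, Cdh1 and Krt5 were above 0 in every library, and so were the fibroblast markers Pdgfra and Pdgfrb.

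The extracellular matrix is the mesh of secreted proteins that holds a tissue together. Interstitial matrix, made mostly by fibroblasts, is built on fibrils of collagens I, III and V, whereas the basement membrane is a thin sheet of collagen IV, laminin, nidogen and perlecan under epithelium and around vessels. In the airway wall the basement membrane separates the epithelium, where squamous dysplasia arises, from the stroma. Collagen chains wind in threes into a triple helix, which needs a glycine at the start of each Gly-X-Y triplet, and the helix is chaperoned, trimmed and crosslinked by dedicated proteins.

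This repeat could be read in the coding sequences of the listed genes. The longest unbroken run of Gly-X-Y triplets spanned 338 to 344 triplets in the 5 fibrillar collagens, 40 in Col4a1 and 66 in Col4a2, and runs of at least 10 triplets were found in 94 of 21637 mouse genes (0.434%). In the fibrillar genes most of the helix is spelled out in exons of 54 bases, or of 108 and 162 bases, each starting with an intact glycine codon. Among the exons that lay wholly inside such runs, lengths of 54, 108 or 162 bases were taken by 31 of 43 in Col1a1, 32 of 43 in Col1a2, 33 of 42 in Col3a1, 38 of 48 in Col5a1 and 33 of 43 in Col5a2, and every one of these exons began with a glycine codon. The type IV chains differed, with 2 of 24 exons of these lengths in Col4a1 and 5 of 18 in Col4a2, and with glycine codons at the start of 13 and 9 exons. A 54-base exon of each gene is shown to make the shared repeat visible, read from the mm9 genome (NCBIM37) on the coding strand, 5′ to 3′, with the glycine codon that opens each Gly-X-Y triplet in capitals. They are Col1a1 exon 8 (chr11:94801218-94801271, plus strand), Col1a2 exon 8 (chr6:4465481-4465534, plus), Col3a1 exon 6 (chr1:45382205-45382258, plus), Col5a1 exon 15 (chr2:27820771-27820824, plus), Col5a2 exon 6 (chr1:45491737-45491790, minus), Col4a1 exon 7 (chr8:11245211-11245264, minus) and Col4a2 exon 17 (chr8:11413979-11414032, plus).
Col1a1: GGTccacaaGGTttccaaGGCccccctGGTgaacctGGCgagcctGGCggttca
Col1a2: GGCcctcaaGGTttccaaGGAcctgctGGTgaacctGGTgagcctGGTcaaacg
Col3a1: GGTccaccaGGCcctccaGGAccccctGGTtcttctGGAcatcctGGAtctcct
Col5a1: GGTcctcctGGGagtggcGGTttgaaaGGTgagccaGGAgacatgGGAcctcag
Col5a2: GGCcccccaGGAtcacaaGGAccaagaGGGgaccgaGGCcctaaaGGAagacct
Col4a1: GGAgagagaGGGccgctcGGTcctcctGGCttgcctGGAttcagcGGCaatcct
Col4a2: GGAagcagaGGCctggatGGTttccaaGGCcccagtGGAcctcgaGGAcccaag

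Several of these genes are neighbours in the mm9 genome. Col3a1 (chr1:45368383-45406551, plus) and Col5a2 (chr1:45431166-45560127, minus) lie 24614 bases apart with their 3′ ends facing. Col6a2 and Col6a1 are 85161 bases apart and Dcn and Lum 47357 bases apart, both pairs on chromosome 10. Col4a1 (chr8:11198423-11312826, minus) and Col4a2 (chr8:11312805-11449287, plus) stand head to head and their annotated first exons meet, so reads from the few shared bases could not be assigned to either strand by this unstranded library kit.

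Per kilobase of exon, the level of these genes spanned more than 7 log2 units. The length was that of all annotated exons of a gene joined over its transcripts, so the order depends on that annotation. The highest median levels over the 25 samples, in log2 CPM (read counts scaled by library size) per kilobase, were those of the small proteoglycan decorin (Dcn, 7.22), the collagen-binding glycoprotein Sparc (6.97) and the small proteoglycan biglycan (Bgn, 6.22). They were followed by the microfibril protein Mfap4 (5.63), the collagen chaperone Serpinh1 (5.53) and Col3a1 (4.85), the chain of collagen III. Among fibrillar chains Col1a2 (3.52) and Col1a1 (3.32) came next, then Col5a2 (2.48) and Col5a1 (1.10). Within the basement membrane Col4a1 (4.31) and Col4a2 (3.97) led, above the laminin chain Lamc1 (2.70), the linker nidogen (Nid1, 2.69) and perlecan (Hspg2, 1.80). The lowest were Nid2 (0.26), versican (Vcan, -0.09) and Col12a1 (-0.10). The spread of a gene over the 25 samples (SD of log2 CPM) had a median of 0.87 and ran from 0.51 in Col12a1 to 2.71 in elastin (Eln), so neighbours in this order, such as Col1a2 and Col1a1, differed by less than their spread.

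**Figure D1:**
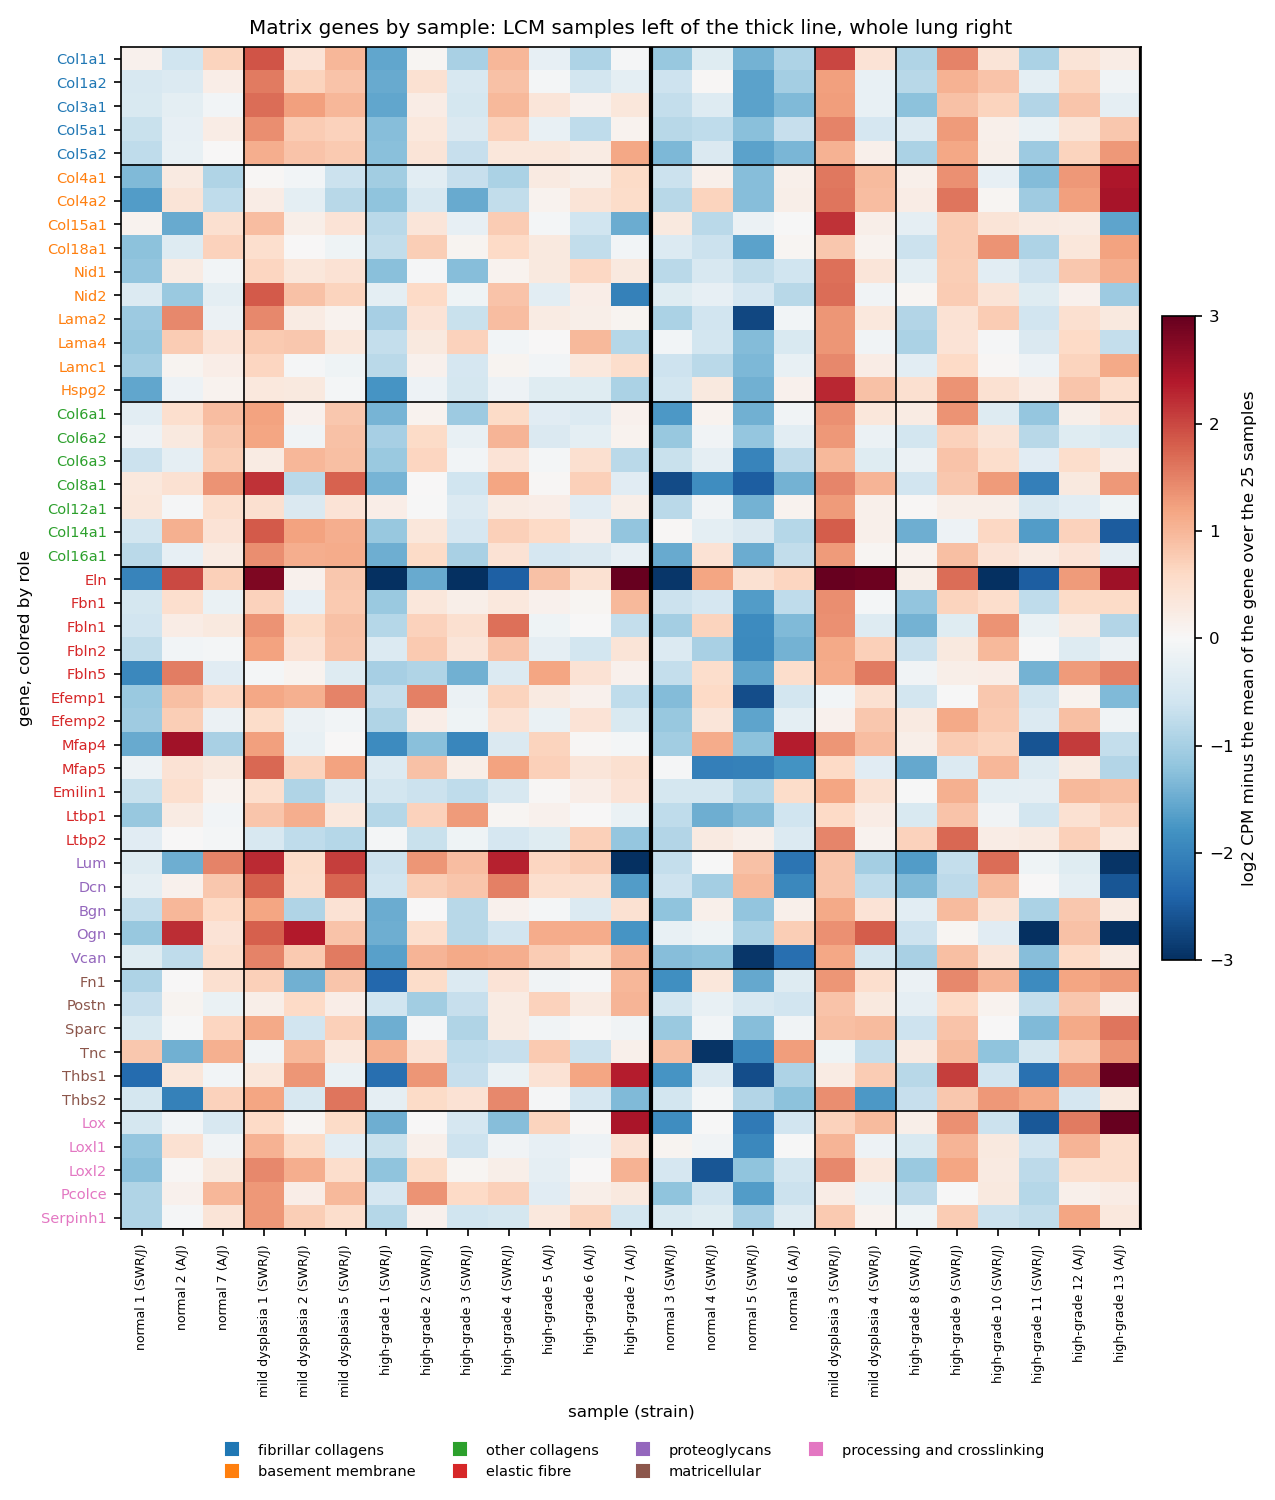
Level of each of the 50 genes (rows, grouped by role) in each of the 25 samples (columns, LCM samples to the left of the thick line), as log2 CPM minus the mean of that gene over all samples, with the colour capped at 3 log2 units in either direction. The mild dysplasia columns show levels above the mean in most rows, and Eln is the row with the widest range (SD 2.71).

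The first comparison asked how matrix transcripts differed between mild dysplasia and normal lung. All 50 genes had a positive estimate, and 24 of the 50 rose at an adjusted p under 0.05, while 0 fell. Of all 15630 genes tested, 5.22% rose and 7.36% fell. Because the list was made with earlier results of these data known, the shares of the 50 genes and of all genes are a description and not a test. The median log2 fold change was 1.43 over the 50 genes and -0.03 over all genes tested. At an unadjusted p under 0.05 in edgeR stood 40 of the 50 genes and 5128 of all 15630 tested. The rise passed the test for 4 of 5 fibrillar collagens, 6 of 10 basement membrane genes, 1 of 7 other collagens, 4 of 12 elastic fibre genes, 1 of 5 proteoglycans, 3 of 6 matricellular genes and 5 of 5 processing and crosslinking genes. Values are log2 fold changes with their standard errors and Benjamini-Hochberg adjusted p-values over all genes tested, from edgeR's quasi-likelihood test with grade, sample type, strain and TIN as terms.

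Collagen III, the fibril partner of collagen I, had the highest level of the fibrillar chains. In LCM samples Col3a1 measured 7.55, 7.72 and 7.92 log2 CPM in normal tissue against 9.68, 9.22 and 8.999 in mild dysplasia. In whole lung it measured 7.28, 7.62, 6.38 and 6.67 in normal against 9.24 and 7.78 in mild dysplasia. Every mild dysplasia sample was above every normal sample of its type, and Col3a1 rose by 1.86 ± 0.45 on the log2 scale (adjusted p = 0.0207, edgeR).

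Its genomic neighbour Col5a2, a chain of the collagen V that nucleates fibrils, followed the same order. Col5a2 measured 4.78, 5.33 and 5.57 log2 CPM in normal and 6.64, 6.40 and 6.34 in mild dysplasia LCM samples. Its whole lung values were 4.22, 5.12, 3.95 and 4.19 in normal and 6.61 and 5.71 in mild dysplasia. The groups did not overlap in either sample type, and the rise was 1.87 ± 0.42 (adjusted p = 0.0181, edgeR). Col5a1, the other main chain of collagen V, rose by 1.60 ± 0.44 (adjusted p = 0.0274, edgeR).

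Collagen I, the main fibril protein, was less even. Col1a1 measured 6.11, 5.37 and 6.64 log2 CPM in normal and 7.87, 6.39 and 6.96 in mild dysplasia LCM samples, which overlapped. In whole lung Col1a1 measured 4.83, 5.62, 4.56 and 5.04 in normal and 7.98 and 6.37 in mild dysplasia, which did not. Its difference of 1.62 ± 0.56 missed the threshold (adjusted p = 0.0567, edgeR). Its partner Col1a2 measured 6.76, 6.83 and 7.45 in normal and 8.81, 7.92 and 8.10 in mild dysplasia LCM samples, and 6.63, 7.28, 5.65 and 6.23 against 8.48 and 7.03 in whole lung. The whole lung groups overlapped for Col1a2, whose rise of 1.51 ± 0.46 passed the test (adjusted p = 0.0359, edgeR).

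Of the basement membrane genes 6 of 10 rose (median 1.49 over all 10). Nid1, which ties laminin to collagen IV, had the smallest p-value of the 50 genes, with 4.003, 5.43 and 5.11 log2 CPM in normal and 5.83, 5.54 and 5.63 in mild dysplasia LCM samples. In whole lung Nid1 measured 4.37, 4.71, 4.46 and 4.60 in normal and 6.85 and 5.55 in mild dysplasia. There was no overlap in either type, although the gap in LCM samples was small, and Nid1 rose by 1.58 ± 0.31 (adjusted p = 0.0126, edgeR).

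Lamc1, the gamma chain shared by most laminins, rose by 1.36 ± 0.28 (adjusted p = 0.0127, edgeR). In LCM samples it measured 4.70, 5.80 and 5.93 log2 CPM in normal and 6.36, 5.69 and 5.60 in mild dysplasia, with overlap, whereas in whole lung 5.11, 4.91, 4.37 and 5.49 in normal lay below 7.16 and 5.95 in mild dysplasia.

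The type IV collagen chains overlapped between grades in LCM samples. Col4a1 measured 5.71, 7.32 and 6.15 log2 CPM in normal and 7.08, 6.96 and 6.39 in mild dysplasia LCM samples, and 6.40, 7.20, 5.77 and 7.20 against 8.62 and 7.997 in whole lung. Col4a2 measured 4.91, 6.97 and 5.84 in normal and 6.81, 6.30 and 5.76 in mild dysplasia LCM samples, and 5.76, 7.26, 5.30 and 6.77 against 8.20 and 7.52 in whole lung. In whole lung both chains were higher in each mild dysplasia sample than in any normal sample, and the fitted rises were 1.50 ± 0.40 (adjusted p = 0.0265) for Col4a1 and 1.49 ± 0.45 (adjusted p = 0.0368) for Col4a2 in edgeR. Perlecan (Hspg2), the heparan sulphate proteoglycan of the sheet, rose by 1.52 ± 0.43 (adjusted p = 0.0294) and Nid2 by 1.49 ± 0.43 (adjusted p = 0.0317). The threshold was missed by Lama2 (1.55), Lama4 (1.21), Col18a1 (1.06) and Col15a1 (0.75 on the log2 scale).

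**Figure D2:**
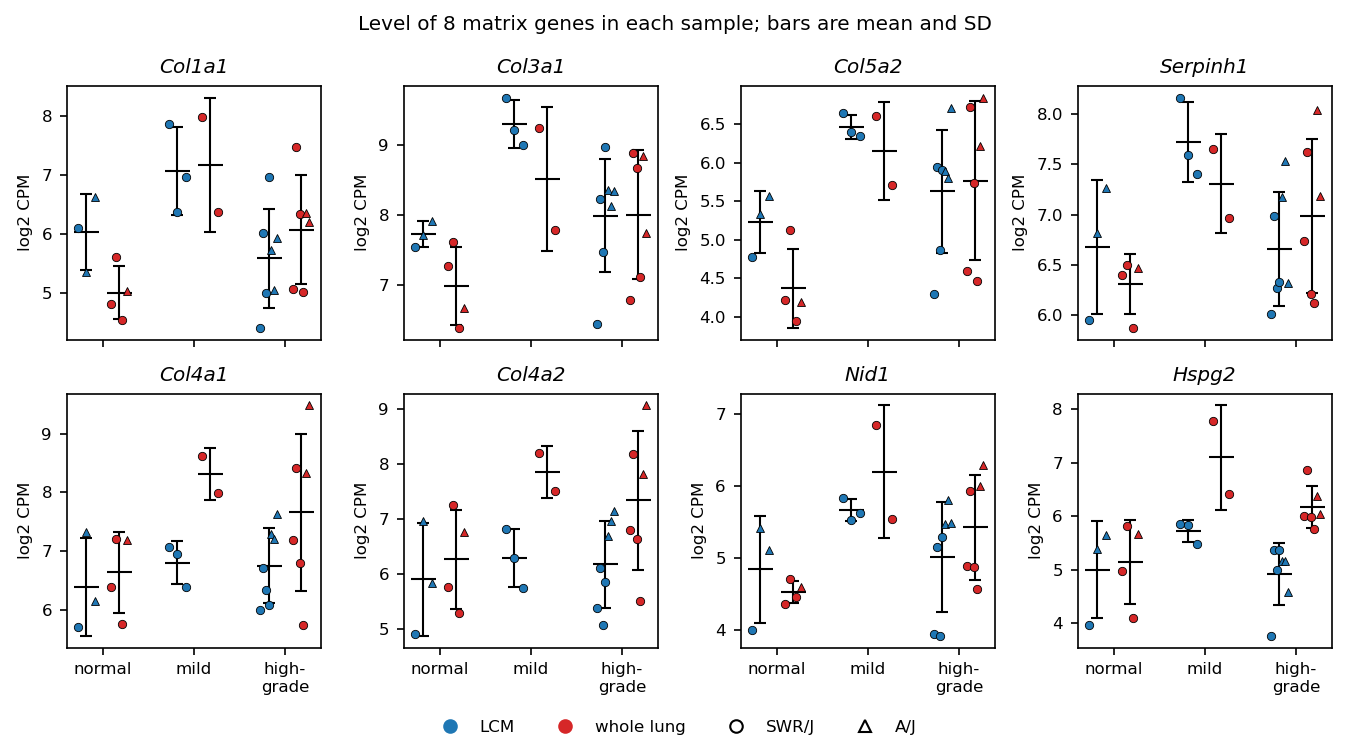
Log2 CPM of Col1a1, Col3a1, Col5a2, Serpinh1, Col4a1, Col4a2, Nid1 and Hspg2 in normal, mild dysplasia and high-grade samples, with LCM and whole lung samples apart. Points are samples and bars are the mean with SD. Col3a1, Col5a2, Serpinh1 and Nid1 were higher in each mild dysplasia sample than in every normal sample of the same type.

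All 5 genes that fold, trim or crosslink collagen rose. Serpinh1, the chaperone that holds procollagen helices in the endoplasmic reticulum, measured 5.96, 6.82 and 7.26 log2 CPM in normal and 8.16, 7.60 and 7.40 in mild dysplasia LCM samples. In whole lung it measured 6.40, 6.50, 5.87 and 6.47 in normal and 7.65 and 6.97 in mild dysplasia. No mild dysplasia sample reached down to the normal samples of its type, and the rise was 1.50 ± 0.32 (adjusted p = 0.0141, edgeR).

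Lysyl oxidases start crosslinks between collagen or elastin chains. Loxl2 measured 2.26, 3.55 and 3.82 log2 CPM in normal and 4.95, 4.62 and 4.05 in mild dysplasia LCM samples, and 3.01, 0.96, 2.30 and 2.97 against 4.96 and 3.84 in whole lung. Lox measured 3.94, 4.38 and 3.98 in normal and 5.05, 4.53 and 5.03 in mild dysplasia LCM samples, and 2.60, 4.45, 2.35 and 3.89 against 5.15 and 5.41 in whole lung. Both were without overlap in each sample type, and both rose by 1.93 on the log2 scale, with an SE of 0.46 for Loxl2 (adjusted p = 0.0201) and 0.62 for Lox (adjusted p = 0.0452, edgeR). Loxl1 rose by 1.22 (adjusted p = 0.0434), and Pcolce, which speeds the removal of the procollagen end piece, by 1.18 ± 0.38 (adjusted p = 0.0459).

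Of the elastic fibre genes 4 of 12 rose. Ltbp1, which stores latent TGF-beta in the matrix, measured 4.26, 5.65 and 5.33 log2 CPM in normal and 6.24, 6.50 and 5.72 in mild dysplasia LCM samples, and 4.63, 3.94, 4.11 and 4.81 against 6.01 and 5.62 in whole lung. Fbln2, a fibulin that binds elastic fibres and basement membranes, measured 4.66, 5.31 and 5.33 in normal and 6.59, 5.84 and 6.25 in mild dysplasia LCM samples, and 4.995, 4.42, 3.48 and 3.97 against 6.54 and 6.12 in whole lung. For both genes mild dysplasia lay above normal in each sample type, with rises of 1.52 ± 0.36 for Ltbp1 (adjusted p = 0.0196) and 1.49 ± 0.37 for Fbln2 (adjusted p = 0.0216, edgeR). Fibrillin (Fbn1), the microfibril backbone, rose by 1.30 (adjusted p = 0.0434), and Fbln5, which helps assemble elastin, by 1.50 ± 0.44 (adjusted p = 0.0339). Elastin itself (Eln) had the largest estimate of the 50 genes, 3.18, with a standard error of 1.16, and missed the threshold (adjusted p = 0.0695).

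The remaining groups were mixed. Col16a1, a collagen that binds along fibrils, was the member of the other collagens that rose, by 1.66 ± 0.45 (adjusted p = 0.0274, edgeR). It measured 3.06, 3.62 and 4.13 log2 CPM in normal and 5.26, 4.96 and 4.99 in mild dysplasia LCM samples, and 2.36, 4.30, 2.39 and 3.14 against 5.16 and 3.94 in whole lung, where normal replicate 4 lay inside the mild range. The collagen VI chains, which form beaded filaments around cells, had smaller estimates of 1.05 ± 0.52 for Col6a1, 0.81 ± 0.45 for Col6a2 and 1.24 ± 0.43 for Col6a3, none past the threshold.

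Vcan, the large proteoglycan of loose provisional matrix, measured 2.91, 2.50 and 3.76 log2 CPM in normal and 4.75, 4.05 and 4.83 in mild dysplasia LCM samples, and 1.98, 2.04, 0.36 and 1.01 against 4.42 and 2.75 in whole lung. It rose by 2.06 ± 0.54 (adjusted p = 0.0254, edgeR) with no overlap in either type. The small leucine-rich proteoglycans, which coat fibrils, were not past the threshold, with estimates of 0.55 for Dcn (SE 0.59), 0.55 for Lum (SE 0.80), 1.07 for Bgn and 1.94 for Ogn. Among matricellular genes Postn rose by 1.06 ± 0.28 (adjusted p = 0.0261), Sparc by 1.48 ± 0.44 (adjusted p = 0.0339) and Thbs1 by 2.47 ± 0.74 (adjusted p = 0.0355, edgeR).

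Postn, periostin of the fibroblast matrix, measured 5.997, 6.79 and 6.49 log2 CPM in normal and 6.87, 7.29 and 6.90 in mild dysplasia LCM samples, and 6.15, 6.48, 6.21 and 6.12 against 7.56 and 6.98 in whole lung, without overlap. Thbs1, a trimeric glycoprotein that binds latent TGF-beta, measured 3.43, 6.08 and 5.65 in normal and 6.07, 7.08 and 5.55 in mild dysplasia LCM samples, and 3.96, 5.34, 3.08 and 4.83 against 5.98 and 6.49 in whole lung. The Thbs1 groups overlapped in LCM samples, where normal replicate 1 was the low sample. Tenascin C (Tnc), a glycoprotein of remodelled matrix, and Ltbp2 had the smallest estimates of the 50 genes, 0.05 ± 0.62 and 0.10 ± 0.40.

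Counted over both sample types at once, 13 of 50 genes had every mild dysplasia sample above every normal sample of its own type (Col3a1, Col5a1, Col5a2, Nid1, Nid2, Col14a1, Fbln2, Ltbp1, Vcan, Postn, Lox, Loxl2 and Serpinh1). The same was true of 1.53% of all genes tested.

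The count of 24 depended on single libraries. When each of the 25 samples was left out in turn it ran from 8 to 34, and 7 genes (Col3a1, Col5a2, Lamc1, Loxl2, Ltbp1, Nid1 and Serpinh1) rose in each of these 25 fits. It fell to 8 without mild dysplasia replicate 3, to 9 without mild dysplasia replicate 1, to 10 without normal replicate 1 or normal replicate 5, and to 11 without normal replicate 3. Without both samples that had stood apart it was 9 (Col3a1, Col5a2, Nid1, Lamc1, Fbln2, Ltbp1, Postn, Loxl2 and Serpinh1), and without both samples of conflicting labels 19. In LCM samples alone 0 genes of the whole table passed the edgeR test, with 49 of 50 estimates positive (median 0.95) and 17 at an unadjusted p under 0.05. In whole lung alone 0 of the 50 passed, with 49 positive (median 1.87) and 15 at an unadjusted p under 0.05, and in SWR/J samples alone 20 rose. The all-gene counts at an unadjusted p under 0.05 and the all-gene medians of these fits are not given here. Whether the values of the 50 genes differ from those of all genes in these fits was therefore not assessed. DESeq2 called 36 of the 50 genes higher, among them Col1a1, Eln, Lama2, Lama4, Col6a3 and Ogn, which missed the threshold in edgeR. The share of all genes that DESeq2 called is not given beside this count.

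Markers of other cell types and RNA quality were looked at in the same groups. Beside the 50 genes, 1 of 7 fibroblast markers rose (Pdgfra by 1.39 ± 0.41) and 1 fell (Thy1, -4.21 ± 1.22), with a median of 1.22 over the list. The medians were 1.21 over 6 smooth muscle markers, 1.28 over 6 endothelial markers, 0.84 over 6 airway and 1.73 over 6 alveolar epithelial markers. In the edgeR test 0 markers of these lists passed. Of them 2, 3, 3 and 2 had an unadjusted p under 0.05, against 5128 of all 15630 genes tested. In these bulk samples fewer cells of a type and less RNA per cell cannot be told apart.

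The summed level of the fibroblast list, as log2 of summed CPM plus 1, was 8.69 to 9.86 in normal and 8.11 to 9.08 in mild dysplasia LCM samples, and 7.92 to 10.5 and 8.29 to 9.02 in whole lung. The mild dysplasia samples lay within or below the normal range of their type in this sum. Gene by gene, 6 of the 7 fibroblast estimates were positive and Thy1 was the negative one, so the sum and the single genes differed in direction. Thy1 had the highest median of the list in whole lung (6.80 log2 CPM, with 5.76 in LCM samples) and weighs in the sum accordingly. Fibroblast content cannot be read from this sum. The share of counts taken by the 50 genes was 0.183% to 0.501% in normal and 0.469% to 0.976% in mild dysplasia. Of 5 leukocyte markers 1 fell (Cd3e, -5.17 ± 1.44), with a median of -1.62 over the list, 4 negative estimates and 2 at an unadjusted p under 0.05. The summed leukocyte level was 10.49 to 11.84 in normal and 12.50 to 12.76 in mild dysplasia LCM samples, which did not overlap. In whole lung it was 10.48 to 12.95 against 11.61 to 12.51, which did. Lyz2 had the highest median of this list, with 12.1 log2 CPM in LCM samples and 10.98 in whole lung. Ptprc came next, with 5.11 and 7.73. The sum therefore follows mainly Lyz2, and leukocyte content cannot be read from it. The summed smooth muscle list was 8.60 to 11.2 in normal and 9.01 to 11.6 in mild dysplasia LCM samples, and 7.48 to 10.6 and 10.01 to 10.09 in whole lung. The endothelial list was 6.80 to 10.2 and 7.31 to 8.29 in LCM samples, and 7.27 to 10.03 and 10.1 to 10.5 in whole lung. No marker of these 4 lists was at 0 in any sample.

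Mesothelial markers stood higher in mild dysplasia, where 2 of 3 tested rose (Upk3b and Lrrn4). Their summed level was 5.12 to 8.52 in normal and 9.68 to 10.3 in mild dysplasia LCM samples, and 3.83 to 5.31 against 6.88 to 7.15 in whole lung. Of the defining mesothelial markers Msln was above 0 in every sample, whereas Upk3b was at 0 in 4 samples, Lrrn4 in 4 and Wt1 in 8. TIN was 55.6 to 69.6 in normal and 39.5 to 57.8 in mild dysplasia LCM samples, and 28.9 to 60.7 against 63.4 to 75.1 in whole lung. The part of these cell type markers and of TIN in the result was not tested beyond the TIN term.

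The second comparison set high-grade lesions against normal tissue, using the same normal samples. In high-grade lesions 0 of the 50 genes passed the threshold in edgeR or DESeq2, and 0.0192% of all genes tested did in edgeR. An unadjusted p under 0.05 was found for 15 of the 50 and for 1420 of all 15630 genes tested. Of the 50 estimates 45 were positive, and the median log2 fold change was 0.47 against 0.00 over all genes. By role the medians were 0.70 for fibrillar collagens, 0.56 for basement membrane, 0.23 for other collagens, 0.46 for elastic fibre, -0.09 for proteoglycans, 0.59 for matricellular and 0.46 for processing genes.

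The smallest adjusted p-values were those of Lamc1, with an estimate of 0.79 ± 0.22 (adjusted p = 0.302), and Thbs1, with 2.00 ± 0.59 (adjusted p = 0.315, edgeR). For Vcan the estimate was 1.41 ± 0.43, for Col5a2 1.07 ± 0.33, for Loxl2 0.99 ± 0.37, for Fbln2 0.78 ± 0.28 and for Col6a3 0.52 ± 0.32. The collagen I and III chains stood at 0.50 ± 0.43 for Col1a1, 0.47 ± 0.35 for Col1a2 and 0.70 ± 0.35 for Col3a1. The type IV chains stood at 0.88 ± 0.31 (Col4a1) and 0.78 ± 0.33 (Col4a2).

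The spread within high-grade samples was wide. Col3a1 ran from 6.44 through a median of 8.23 to 8.97 log2 CPM in LCM samples and from 6.78 through 8.20 to 8.88 in whole lung, and both ranges overlapped those of normal samples. Col1a1 ran from 4.41 through 5.73 to 6.96 in LCM samples and from 5.02 through 6.27 to 7.47 in whole lung. Col4a1 ran from 6.01 through 6.72 to 7.63 and from 5.74 through 7.76 to 9.48, and Nid1 from 3.92 through 5.29 to 5.80 and from 4.57 through 5.41 to 6.29. High-grade replicate 1 (LCM) gave the lowest Vcan value, 1.64, against a median of 4.27 and a highest value of 4.41 in high-grade LCM samples.

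Fitted apart, the sample types gave different centres. In LCM samples the median over the 50 genes was -0.03, with 23 positive and 0 at an unadjusted p under 0.05, and in whole lung it was 0.90, with 47 positive and 16 at an unadjusted p under 0.05. The matching values over all genes are not given for these 2 fits, so the contrast is not read as particular to the 50 genes. The difference between sample types itself was tested as an interaction, for which 0 of the 50 genes passed, as did 0% of all genes tested in edgeR and 0 of the 50 in DESeq2. An unadjusted p under 0.05 was found for 3 of the 50 and for 1149 of all 15630 genes tested. Col8a1, a short-chain collagen of vessel walls, had the largest interaction of the 3 (3.25 ± 0.90, adjusted p = 0.674, edgeR). Its whole lung values were 0.15, 0.96, 0.36 and 1.42 log2 CPM in normal, 4.29 and 3.84 in mild dysplasia, and 0.77 to 4.12 (median 3.38) in high-grade lesions. Its LCM values were 3.14, 3.29 and 4.18 in normal, 4.996, 2.03 and 4.60 in mild dysplasia, and 1.43 to 4.02 (median 2.85) in high-grade lesions.

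For mild dysplasia by sample type 0 of the 50 genes and 0% of all genes tested passed the interaction test. An unadjusted p under 0.05 was found for 6 of the 50 (lowest adjusted p = 0.382, for Fbln1, 2.73 ± 1.05, edgeR) and for 1679 of all 15630 genes tested. For high-grade by strain 0 of the 50 and 0% of all genes tested passed. An unadjusted p under 0.05 was found for 668 of all 15630 genes tested and for 6 of the 50, all with a lower estimate in A/J (Hspg2, Lama2, Col6a2, Pcolce, Efemp1 and Efemp2, adjusted p = 0.978 for each, edgeR). DESeq2 also found 0 of the 50 in each interaction.

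**Figure D3:**
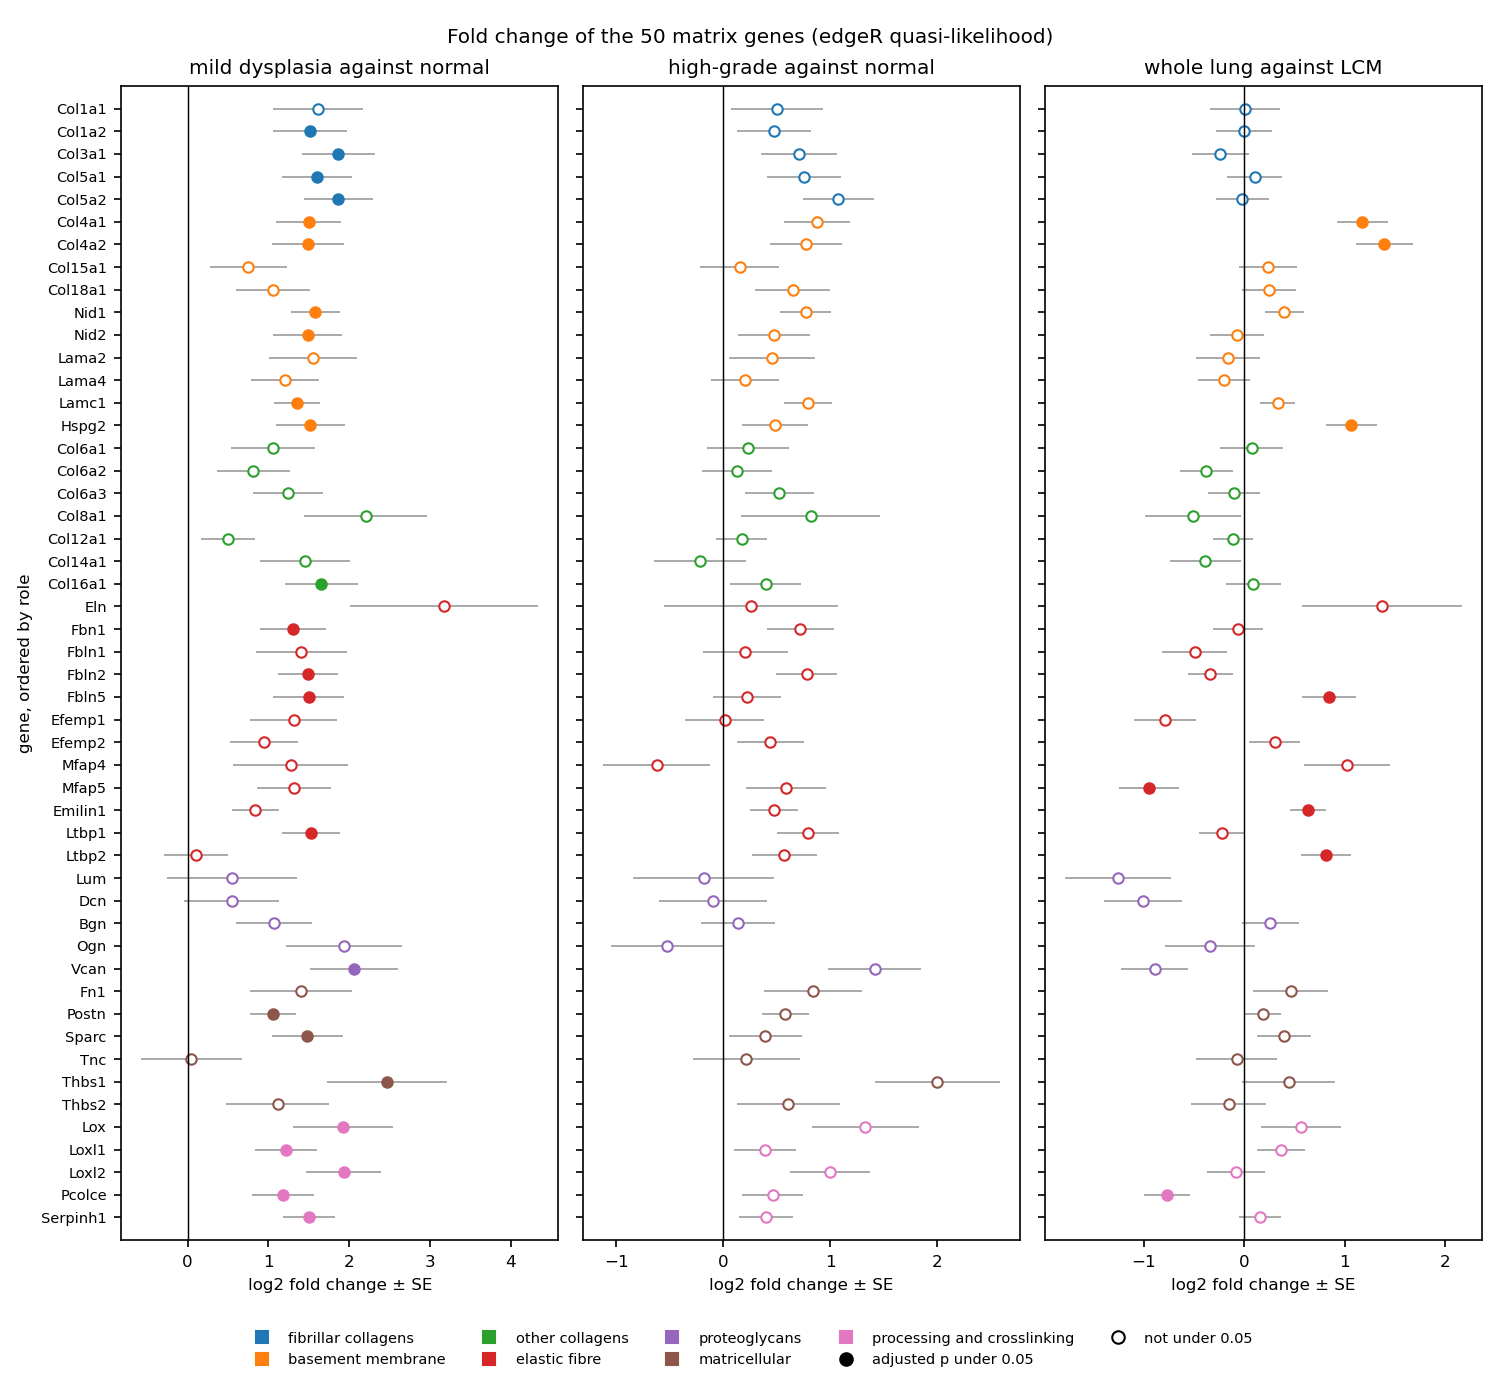
Log2 fold change with standard error of each of the 50 genes for mild dysplasia against normal, high-grade against normal, and whole lung against LCM, ordered by role. Filled points had an adjusted p under 0.05 in edgeR, which were 24 genes in the first panel, 0 in the second and 8 in the third.

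High-grade lesions were also compared with mild dysplasia directly. The estimate was negative for 48 of the 50 genes, with a median of -0.77 against 0.04 over all genes, but 0 of the 50 passed the threshold in edgeR, where 0.339% of all genes tested did. An unadjusted p under 0.05 was found for 19 of the 50 and for 3538 of all 15630 genes tested. The lowest adjusted p-values were those of osteoglycin (Ogn, -2.46 ± 0.67, adjusted p = 0.0683) and Serpinh1 (-1.10 ± 0.32, adjusted p = 0.0732, edgeR). Col3a1 stood at -1.16 ± 0.45 and Col1a2 at -1.04 ± 0.45, while Ltbp2 (0.47 ± 0.41) and Tnc (0.17 ± 0.60) were the positive estimates. DESeq2 called 7 genes lower (Col14a1, Col16a1, Eln, Fbln5, Mfap4, Ogn and Serpinh1), and edgeR without the TIN term 8 (Nid1, Lamc1, Hspg2, Col14a1, Eln, Fbln5, Ogn and Serpinh1). Without high-grade replicate 9 edgeR called 6. The shares of all genes called in these alternative fits are not given here.

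Ogn values show the overlap behind this. In LCM samples Ogn measured 7.59, 8.18 and 6.66 log2 CPM in mild dysplasia and 4.03 to 6.93 (median 5.24) in high-grade lesions, and in whole lung 7.16 and 7.63 against 2.16 to 6.67 (median 5.33). The mild whole lung samples were above all high-grade whole lung samples, and in LCM samples the ranges overlapped. Serpinh1 in high-grade lesions ran from 6.01 through a median of 6.33 to 7.53 in LCM samples and from 6.12 through 6.96 to 8.04 in whole lung.

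The third comparison asked which matrix genes separated whole lung sections from microdissected cells at a given grade, strain and TIN. In whole lung 6 of the 50 genes were higher (Col4a1, Col4a2, Hspg2, Emilin1, Ltbp2 and Fbln5) and 2 lower (Pcolce and Mfap5), against 9.05% of all genes tested that were higher and 5.6% that were lower in whole lung, shares near those of the 50 genes. The median over the 50 genes was 0.00 against 0.03 over all genes. An unadjusted p under 0.05 was found for 13 of the 50 and for 4753 of all 15630 genes tested.

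Col4a2 ran from 4.91 through a median of 6.10 to 7.15 log2 CPM in the 13 LCM samples and from 5.30 through 7.03 to 9.07 in the 12 whole lung samples, a difference of 1.40 ± 0.28 (adjusted p = 0.00407, edgeR). Col4a1 ran from 5.71 through 6.72 to 7.63 in LCM samples and from 5.74 through 7.20 to 9.48 in whole lung, a difference of 1.18 ± 0.25 (adjusted p = 0.00563). For Hspg2 the ranges were 3.76 through 5.37 to 5.85 and 4.10 through 5.996 to 7.79, a difference of 1.07 ± 0.25 (adjusted p = 0.00911). The ranges overlapped for all 3 genes, and the highest samples of each were whole lung. These 3 differences passed the test in all 25 fits that left out a sample.

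The 3 elastic fibre genes that were higher in whole lung differed by less. Emilin1, a glycoprotein at the surface of elastic fibres, differed by 0.64 ± 0.18 (adjusted p = 0.0212), Ltbp2 by 0.81 ± 0.25 (adjusted p = 0.0312) and Fbln5 by 0.84 ± 0.27 (adjusted p = 0.0387, edgeR). Pcolce was lower in whole lung (-0.76 ± 0.23, adjusted p = 0.0286), with 5.22 to 7.48 (median 6.43) in LCM samples and 4.46 to 6.42 (median 5.76) in whole lung. The microfibril protein Mfap5 was lower too (-0.95 ± 0.29, adjusted p = 0.0345), with 3.82 to 5.96 (median 4.72) and 2.18 to 5.24 (median 3.84).

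Estimates of the 5 fibrillar collagens lay between -0.24 ± 0.29 (Col3a1) and 0.10 ± 0.27 (Col5a1). Col1a1 ran from 4.41 through 6.03 to 7.87 in LCM samples and from 4.56 through 5.91 to 7.98 in whole lung, and Col3a1 from 6.44 through 8.23 to 9.68 and from 6.38 through 7.68 to 9.24. The basement membrane genes were not uniform, since Nid1 (0.40 ± 0.19), Lamc1 (0.33 ± 0.18), Lama2 (-0.17 ± 0.32), Lama4 (-0.20 ± 0.26) and Nid2 (-0.07 ± 0.27) missed the threshold. In the other roles the smallest p-values were those of Col6a2 (-0.38 ± 0.27), Vcan (-0.89 ± 0.34, adjusted p = 0.0764) and Sparc (0.40 ± 0.27).

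The count of 8 was 3 without both samples of conflicting labels (Col4a1, Col4a2 and Hspg2), 4 without high-grade replicate 2, and 5 without mild dysplasia replicate 5 or without normal replicate 7. In SWR/J samples alone it was 3 (Col4a2, Hspg2 and Fbln5), and in A/J samples alone 0 genes of the whole table passed the edgeR test, with 7 of the 50 at an unadjusted p under 0.05. Matching shares of all genes in these subsets are not given here. Endothelial markers moved with these genes. All 6 were higher in whole lung (median 1.62), and their summed level was 6.30 to 10.2 in LCM samples and 7.27 to 10.5 in whole lung. Of the alveolar markers 3 of 6 were higher (median 2.54) and of the cartilage markers 2 of 5 were lower (median -2.90). Of the fibroblast markers 2 of 7 were higher (Pdgfra and Pdgfrb, median 0.39 over the list), and their summed level in the whole lung and LCM samples of each grade overlapped. Of the leukocyte markers 1 of 5 was higher (median 0.70), while 1 of 6 airway epithelial markers (median -0.81) and 1 of 3 mesothelial markers (median 0.31) were lower. No smooth muscle marker passed the edgeR test (median -0.49, 1 of 6 at an unadjusted p under 0.05). The part of these markers in the difference was not tested.

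**Figure D4:**
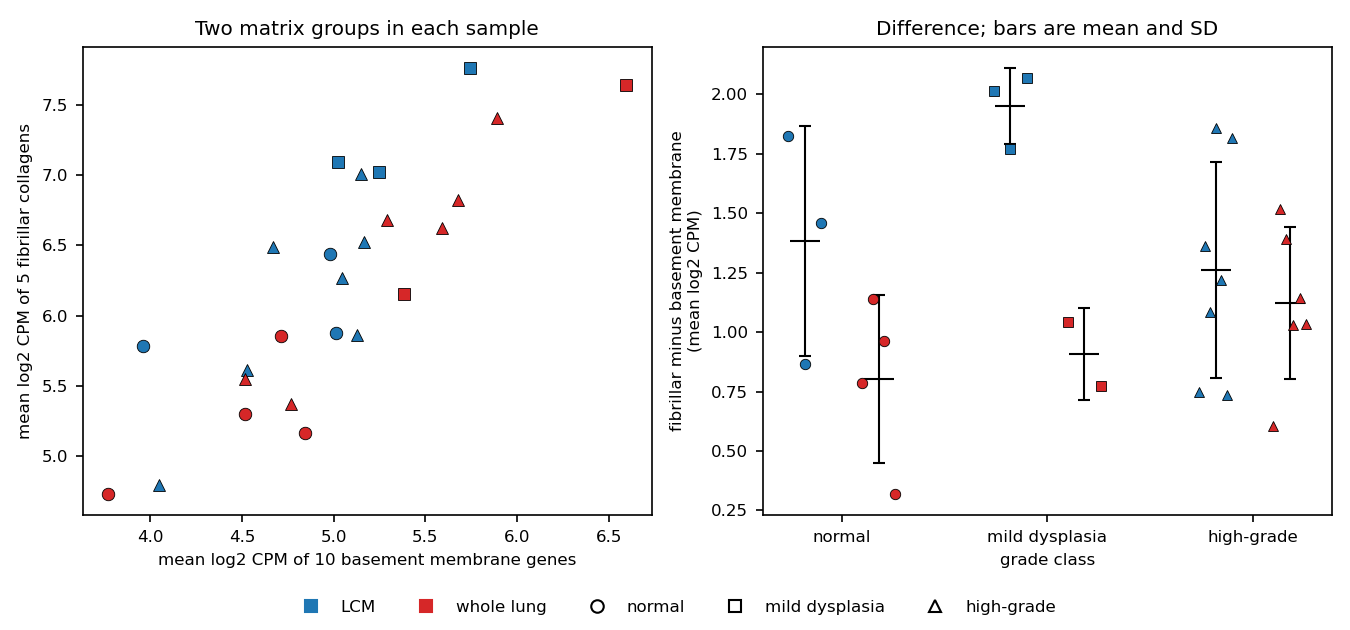
Left, mean log2 CPM of the 5 fibrillar collagens against that of the 10 basement membrane genes in each of the 25 samples. Right, the difference of the 2 means (fibrillar minus basement membrane) by grade and sample type, with mean and SD, which was 1.45 ± 0.48 over LCM samples and 0.98 ± 0.33 over whole lung samples.

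A score of fibrillar minus basement membrane expression, the difference of the mean log2 CPM of both groups, put these patterns side by side. It was 1.45 ± 0.48 (SD, n = 13, range 0.74 to 2.07) in LCM samples and 0.98 ± 0.33 (SD, n = 12, range 0.32 to 1.52) in whole lung, so the ranges overlapped. Among LCM samples it was 1.38 ± 0.48 in normal (n = 3), 1.95 ± 0.16 in mild dysplasia (n = 3) and 1.26 ± 0.46 in high-grade lesions (n = 7), and the mild values of 1.77 to 2.07 were inside or just above the highest normal value of 1.83. Among whole lung samples it was 0.80 ± 0.35 (n = 4), 0.91 ± 0.19 (n = 2) and 1.12 ± 0.32 (n = 6). The fibrillar mean alone was 6.03 ± 0.35 in normal, 7.29 ± 0.41 in mild dysplasia and 6.08 ± 0.73 in high-grade LCM samples, and 5.26 ± 0.46, 6.90 ± 1.05 and 6.41 ± 0.79 in whole lung. The basement membrane mean was 4.65 ± 0.60, 5.34 ± 0.37 and 4.82 ± 0.42 in LCM samples and 4.46 ± 0.48, 5.99 ± 0.86 and 5.29 ± 0.54 in whole lung. In both sample types the 2 means were highest in mild dysplasia. The score was not tested, because its members were chosen with results of these data known.

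For the pairs taken here, the ratio between chains that assemble into a common protein varied less than the chains did. Ratios between chains of different collagens were not taken, so whether a narrow spread is particular to shared proteins was not tested. The log2 ratio of Col4a1 to Col4a2, which pair in the collagen IV trimer, was 0.46 with an SD of 0.26 over the 25 samples, while the chains themselves had SDs of 0.97 and 1.06. For Col1a1 to Col1a2, which combine in collagen I, it was -1.27 with an SD of 0.41, against SDs of 0.99 and 0.83. Col5a1 to Col5a2 had an SD of 0.49 and Col6a1 to Col6a2 of 0.46, both under the SDs of their chains (0.79 and 0.92, and 0.86 and 0.71). The paralogs Nid1 and Nid2 are separate proteins, and their log2 ratio of 2.52 had an SD of 0.91, above those of either gene (0.75 and 0.86). All genes share the library and its depth within a sample, so these SDs are given as a description.

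On the per-length scale the mean log2 ratio was -0.38 for Col1a1 to Col1a2, 0.41 for Col4a1 to Col4a2, -0.99 for Col5a1 to Col5a2, 1.25 for Col6a1 to Col6a2, -1.90 for Col6a3 to Col6a1 and 2.21 for Nid1 to Nid2. These values depend on the joined exon length, which was 6563 bases for Col1a1 and 12145 for Col1a2, and 4393 for Col6a1 and 8326 for Col6a2. The coding sequences of these pairs were close in length, with 1453 and 1372 codons, and 1025 and 1034. The laminin chains Lama2 and Lama4 were at -2.10 and -1.59 relative to Lamc1. Their log2 ratios to it spread with SDs of 0.57 and 0.64, the latter close to the SD of 0.65 of Lamc1 itself.

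**Figure D5:**
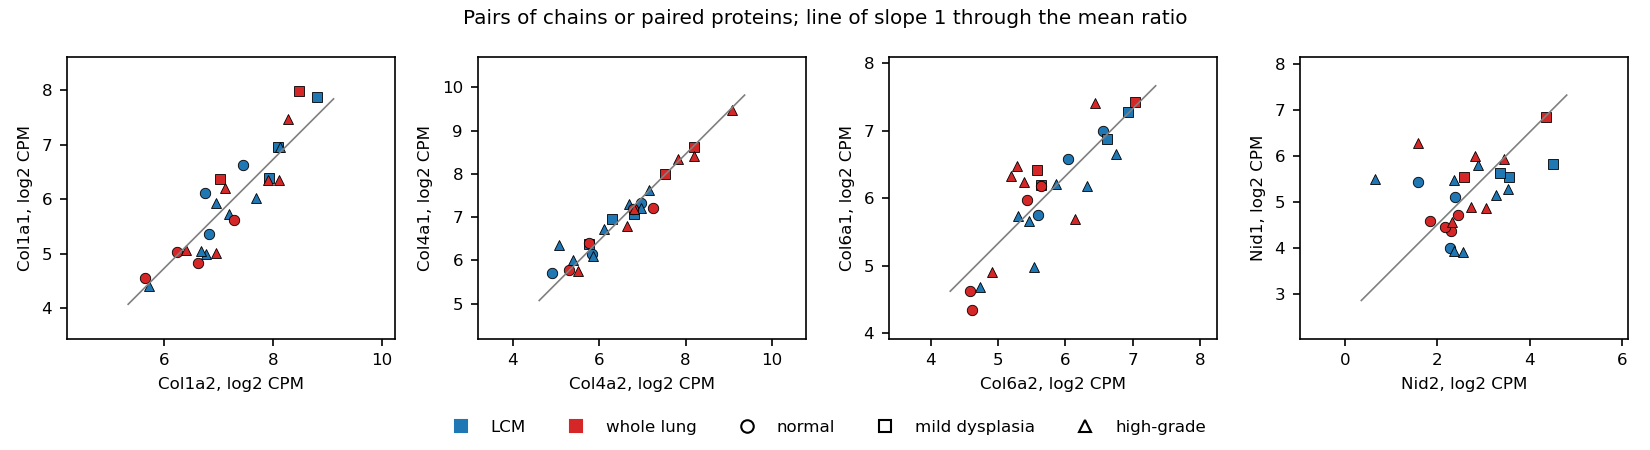
Log2 CPM of paired genes in the 25 samples, with Col1a1 against Col1a2, Col4a1 against Col4a2, Col6a1 against Col6a2 and Nid1 against Nid2, and a line of slope 1 through the mean ratio. The SD of the log2 ratio was 0.26 for the collagen IV pair, where points lie close to the line, and 0.91 for the nidogens, where they scatter.

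Strain was a term of the model. At a given grade, sample type and TIN, Fbln5 was higher in A/J than in SWR/J by 1.82 ± 0.43 (adjusted p = 0.0392, edgeR), as the only one of the 50 genes to pass, against 0.365% of all genes tested that were higher and 0.653% that were lower. Fbln5 ran from 4.57 through a median of 5.35 to 6.45 log2 CPM in A/J and from 2.98 through 4.26 to 5.01 in SWR/J LCM samples, and from 5.43 through 6.20 to 6.43 against 3.36 through 5.08 to 6.47 in whole lung. The ranges overlapped in both sample types. An unadjusted p under 0.05 was found for 13 of the 50 genes and for 2742 of all 15630 genes tested. Among the 13 were Mfap4 (2.28 ± 0.68, adjusted p = 0.105), Col4a2 (1.33 ± 0.43) and Col4a1 (1.18 ± 0.38, adjusted p = 0.128 for both, edgeR). No gene passed without both samples that had stood apart, and the count ran from 0 to 7 when single samples were left out, with 0 in the fits without normal replicates 1, 3 or 5, mild dysplasia replicates 2, 3 or 5, or high-grade replicates 1, 5, 8, 10, 12 or 13, and 7 without high-grade replicate 9. TIN moved with 0 of the 50 genes in edgeR, 1 of which (Efemp1, -0.35 ± 0.16 per 10 units of TIN) had an unadjusted p under 0.05, and with 6.99% of all genes tested.

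Other genes of matrix biology were followed as lists beside the 50, also chosen with earlier results of these data known. The shares of all genes tested that rose and fell in mild dysplasia were 5.22% and 7.36%. In mild dysplasia 7 of 13 further laminin, type IV and basement membrane genes rose (Lamb1, Lamb2, Col4a5, Col4a6, Agrn, Sparcl1 and Tinagl1), as did 2 of 12 epithelial adhesion genes (Lama5, by 1.94, and Cd151), and 0 fell in either list. The genes of collagen biosynthesis gave 4 of 21, namely the lysyl hydroxylase Plod2 (1.50 ± 0.34), the procollagen proteases Adamts2 and Bmp1, and the crosslinking transglutaminase Tgm2. Of 19 matrix receptors 4 rose (Itga9, Itgav, Itgb1 and Ddr2). Of 16 genes of the TGF-beta pathway, which controls collagen transcription in fibroblasts, 5 rose, among them the ligands Tgfb2 and Tgfb3 (1.57 ± 0.34), the target Ctgf (1.96 ± 0.49) and the ligand-storing Ltbp3. In high-grade lesions 0 genes of these 5 lists passed the edgeR threshold, with 15 at an unadjusted p under 0.05 and 67 of 81 estimates positive. Tgfb3 was lower in high-grade lesions than in mild dysplasia (-1.65 ± 0.33, adjusted p = 0.039, edgeR).

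Between sample types the further type IV chains Col4a3 and Col4a4, which form the collagen IV network of the alveolar wall, were higher in whole lung by 2.43 ± 0.61 (adjusted p = 0.0127) and 2.78 ± 0.76 (adjusted p = 0.0186, edgeR). They were the 2 of 13 genes of their list that passed, with 9 estimates positive, 4 negative and a median of 0.04. Of all genes tested 9.05% were higher in whole lung. Of the 19 receptors Itga9, Itgb3 and Sdc3 were higher in whole lung, and of the 16 TGF-beta pathway genes 3 were, among them Tgfb1 and Smad7.

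Upstream sequence was available for 33 of the 50 genes from RefSeq (GRCm38.p6). In the 150 bases before the start, on either strand, GGGCGG (the letters of a GC box) was found in 16 of 33 genes (48.5%), against 29% of 27025 promoters of all genes. CCAAT was found in 9 of 33 (27.3%) against 25.3%, and TATAAA in 3 of 33 (9.09%) against 8.08%. The 4 windows below, from 2 fibrillar and 2 basement membrane genes that rose together in mild dysplasia, show how different these upstream regions are, with the matches to any of these 3 motifs in capitals (ATTGG is CCAAT on the other strand). They are Col1a2 (chr6:4505468-4505617), Col3a1 (chr1:45311388-45311537), Nid1 (chr13:13437452-13437601) and Hspg2 (chr4:137468653-137468802), all on the plus strand of GRCm38.p6.
Col1a2: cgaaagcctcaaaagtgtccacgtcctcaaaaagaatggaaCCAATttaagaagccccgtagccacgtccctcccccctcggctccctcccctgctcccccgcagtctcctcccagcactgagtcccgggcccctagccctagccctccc
Col3a1: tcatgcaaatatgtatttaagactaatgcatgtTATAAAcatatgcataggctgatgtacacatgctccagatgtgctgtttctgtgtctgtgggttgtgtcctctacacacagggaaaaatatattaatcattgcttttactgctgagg
Nid1: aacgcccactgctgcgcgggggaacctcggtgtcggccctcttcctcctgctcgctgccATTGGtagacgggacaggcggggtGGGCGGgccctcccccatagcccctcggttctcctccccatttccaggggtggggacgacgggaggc
Hspg2: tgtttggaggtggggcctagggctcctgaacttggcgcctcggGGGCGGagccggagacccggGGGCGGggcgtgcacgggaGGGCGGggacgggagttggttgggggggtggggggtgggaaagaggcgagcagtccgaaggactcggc

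The Col1a2 window held CCAAT, that of Col3a1 held TATAAA, that of Nid1 held CCAAT and GGGCGG, and that of Hspg2 held GGGCGG at 3 places. The letters are a description of these windows and not of binding.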

How the data were processed

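RNA was sequenced from fresh-frozen whole lung sections and LCM tissue with TruSeq polyA libraries and single-end reads. The authors trimmed reads with Trimmomatic, aligned them to mm9 with STAR and deposited RSEM expected counts per Ensembl gene. Of these expected counts 88.8% were whole numbers, and all were rounded. Of 40 samples, the 25 labelled as passing quality control were used.

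Genes with an interquartile range above 0 and summed log2 CPM above 1 were kept (15630 of 37310). edgeR (4.0.16, R 4.3.3) quasi-likelihood fits with TMM scaling held grade, sample type, strain and median TIN, and interactions were fitted separately. P-values were adjusted by Benjamini-Hochberg over all genes, with a threshold of 0.05. Log2 CPM used a prior count of 2. The SE is the log2 fold change over the square root of F. DESeq2 (1.42.0), other scaling, filters, covariates and sample subsets were alternatives, and the code was tested on simulated data. Where an arm was left with 1 sample, that sample was assumed to vary like the other groups. The depth of a sample limits the precision of genes with few counts.

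The 50 genes and the lists of other matrix genes and cell type markers were chosen with earlier results of these data known. Values are given in full for Col1a1, Col1a2, Col3a1, Col4a1, Col4a2, for the member of each role with the smallest p in each of 3 comparisons (whole lung, mild dysplasia and high-grade), and for members called in a test with 10 or fewer calls, or else the 5 with the largest change. A few others that illustrate a count were named after their values were seen. Exons were read from NCBIM37 (GENCODE annotation) and promoters from RefSeq (GRCm38.p6). No protein sequences were used here, and 1 gene of the TGF-beta list is not reported here by name.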

Additional observations from a re-analysis of the deposited data

Results flagged for a closer look

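Each of 27 measures was searched in the groups of 4 to 10 samples for a highest or lowest sample far from the rest. Dixon's criterion, which flags about 5% of searches by chance, flagged 4 of 81, near that share. The searches used the same samples again for each measure and are not independent. Vcan was lowest in high-grade replicate 1 among 7 high-grade LCM samples, at 1.64 log2 CPM with the next value at 3.81. Ltbp2 was highest in high-grade replicate 9 among 6 high-grade whole lung samples, at 6.81 with the next at 5.80. Mfap5 was highest in normal replicate 3 among 4 normal whole lung samples, at 4.21 with the next at 2.45. Serpinh1 was lowest in normal replicate 5 among the same 4 samples, at 5.87 with the next at 6.40, and normal replicate 5 is a sample that had stood apart in earlier work. No interaction test between sample types or strains passed its threshold for these genes.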

How the results depend on the processing

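For whole lung against LCM, the count of 8 genes was 12 with DESeq2, 7 without TMM scaling, 7 without the filter, 3 without the samples of conflicting labels, 3 in SWR/J samples alone and 0 in A/J samples alone, and 4 to 9 when single samples were left out. For mild dysplasia against normal, the count of 24 was 36 with DESeq2, 31 without TMM scaling, 26 without TIN, 19 without the filter, 9 without high-grade replicate 3 and normal replicate 5, 0 in LCM samples alone, 0 in whole lung samples alone, and 8 to 34 when single samples were left out. For high-grade against mild dysplasia, 0 became 7 with DESeq2, 8 without TIN and 0 to 6 with single samples left out. For A/J against SWR/J, 1 became 3 with DESeq2, 13 without TIN, 0 without high-grade replicate 3 and normal replicate 5, and 0 to 7 with single samples left out. For TIN the range was 0 to 1. Smaller subsets held fewer samples, and otherwise the cause was not tested. The share of all genes called in each alternative is not given beside these counts. They are therefore not read as a change particular to the 50 genes. Without TMM scaling the median mild dysplasia estimate over all genes moved from -0.03 to 0.17 and that of the 50 genes from 1.43 to 1.64. Ltbp2 reversed between sample types in A/J alone, at -1.12. Over 52 pairs of a named gene and a comparison, 1736 alternative values were computed, of which 1551 kept their side of the threshold, 169 lost and 15 gained a call and 1 reversed, and 44 of those that kept their side changed sign without being called in either fit. The score differences moved by less than 1 SD between samples in every alternative run, although the run on z-scores is in other units than that SD. For the chain ratios only single samples were left out. That cannot move the mean by 1 SD, so their stability was not tested. No paired analysis was possible because replicate numbers were given in accession order and the labels do not tie samples to animals.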

Other observations

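The CIS/SCC samples were 1 LCM squamous cell carcinoma (high-grade replicate 7) and 1 whole lung carcinoma in situ (high-grade replicate 13), both A/J at 20 µmol. They were looked at after their values were seen, and with 1 sample of each type no test was made. Stage and sample type cannot be told apart in this pair. Lysyl oxidase (Lox) was at 6.91 and 7.48 log2 CPM, the highest of the 13 LCM and of the 12 whole lung samples, where the others reached at most 5.14 and 6.02. Thrombospondin (Thbs1) was at 8.09 and 9.23, again the highest of each type, with the others at most 7.08 and 7.80. The small proteoglycans were at the other end. Lumican (Lum) was at 2.16 and 2.65, the lowest of each type, with the others at least 4.12 and 3.39. Decorin (Dcn) was at 6.36 and 5.48, with the others at least 7.46 and 6.10, and osteoglycin (Ogn) at 4.03 and 2.16, with the next at 4.34 and 2.26. Col1a1, at 5.94 and 6.20, lay within the range of the other high-grade samples.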
